A study of Mus musculus with 62 samples.

Results

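Genes of the cell division cycle were followed by RNA-seq in mouse brain cells that carry CD11b and that are called microglia in the title of the series. The 46 genes were chosen by name from 53801 gene identifiers in the count matrix. They were read in 3 roles: 9 D and E cyclins with their kinases and inhibitors, 15 genes of replication licensing and S phase, and 22 genes of G2 and mitosis. The groups were APPPS1_NLRP3, APPPS1, NLRP3 and WT mice at 4, 6 and 12 months of age, written 4m, 6m and 12m. APPPS1 mice carry the APP/PS1 transgenes of an amyloid model of Alzheimer's disease, NLRP3 mice lack Nlrp3 on both alleles (NLRP3-/-), APPPS1_NLRP3 mice combine both, and WT mice are wild type. A further 12-month set of all 4 genotypes carries Mxo4 in its titles, a tag with no explanation in the sources, and was kept as groups of its own (for example APPPS1_12m_Mxo4). That gave 16 groups of 3 to 5 libraries and 62 libraries in all. The labels name neither the promoter of the transgenes nor the number of animals behind a library, so the spread behind each p-value may be technical.

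As background, a cell enters the cycle when D cyclins with Cdk4 or Cdk6, and then E cyclins with Cdk2, release the E2F factors from the retinoblastoma proteins. E2F factors switch on genes that license and copy DNA, such as the Mcm helicase subunits, and a later programme of cyclin B, Cdk1 and spindle genes carries the cell through mitosis. Microglia are long-lived and renew themselves by slow local division, and their numbers are known to grow around amyloid plaques. In RNA from whole cell populations, more cells in cycle and more RNA of these genes per cell cannot be told apart.

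Total counts were 18392142 per library at the median. Replicate 21 of APPPS1_6m held 659 counts and was left out of every level given below, which leaves 61 libraries; it stayed in the fits, and without it APPPS1_6m minus WT_6m called 10 members, as with it; NLRP3_12m replicate 45 held 1394435 and APPPS1_12m replicate 41 held 6187249. Nlrp3 lay between 0 and 2.27 CPM (counts per 1000000, scaled by edgeR's TMM method) in the 31 libraries without Nlrp3 and between 60.4 and 271 CPM in the 30 that have it. One library went against its label. The library labelled APPPS1_12m_Mxo4 replicate 56 held 10.9 CPM of Cst7, a gene known to rise in microglia around plaques, against 1649 CPM or more in the other 3 libraries of its group and 11.5 to 33.96 CPM in WT_12m_Mxo4 libraries. For APPPS1_12m_Mxo4 minus WT_12m_Mxo4, the counts and the members named are therefore given also without it. By the level of Xist and of genes on the Y chromosome, all 4-month libraries and all APPPS1_12m and WT_12m libraries were female, all APPPS1_NLRP3_12m and NLRP3_12m libraries were male, the 6-month libraries with Nlrp3 were female, and the other 6-month groups and the Mxo4 groups were mixed.

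Markers of microglia were abundant in every library, with 10 genes summing to 35640 to 54380 CPM. Of the cell types that also divide in the adult brain, neuroblasts and neural progenitors were near the floor: their 10 markers summed to 6.49 to 36.7 CPM, and Dcx reached at most 2.38 CPM. The 8 markers of oligodendrocyte precursors summed to 22.1 to 217 CPM (median 65.7 CPM), and the 8 of endothelium to 99.1 to 1199 CPM. The highest sums of 8 monocyte markers (353.6 CPM) and of 10 neutrophil markers (2765 CPM) were both in APPPS1_12m replicate 38, and 2 of 7 tested monocyte markers and 0 of 10 neutrophil markers were called higher in APPPS1_12m than in WT_12m libraries, against 11.1% of all genes. Their median log2 differences were 1.46 and 1.21 in that comparison, the neutrophil median was 1.04 for APPPS1_NLRP3_6m minus NLRP3_6m, and for APPPS1_NLRP3_12m minus NLRP3_12m the medians were -0.96 and -1.18. B-cell markers summed to 394.6 to 531.0 CPM in APPPS1_12m and 320.6 to 376.7 CPM in WT_12m libraries, and nearly all of that sum was Ighm. No marker of the 14 lists was at 0 in all libraries. The part of these cells in the results was not tested.

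All 46 genes passed the filter on low counts. Per kilobase of exon, averaged over 61 libraries, the most abundant were Cdk4 at 40.3, Pcna at 37.3, Stmn1 at 26.04 and Cdkn1a at 19.7 CPM per kb. Several mitotic genes named below were scarce: Cdk1 averaged 1.83, Top2a 1.80, Mki67 1.12 and Kif23 0.510 CPM per kb, and the licensing factor Cdc6 was lowest at 0.209 CPM per kb. Reads follow CPM before division by length, where Top2a averaged 16.2, Mki67 11.25, Cdk1 9.04 and Kif23 4.03 CPM. The lowest means were 1.095 CPM for Cdc6, 1.24 CPM for Ccne1 and 2.03 CPM for Plk1, and their values rest on few reads. Exons of Ccnd1, Ccnd2, Ccne2, Cdk2, Cdk4, Cdk6, Cdkn1a, Mcm7, Tk1, Gins2, Ccna2, Cdc20, Cdca8, Plk1, Kif20a and Ube2c overlap a gene on the other strand. Pcna, Tyms, Ccnb1, Ccnb2 and Stmn1 have near copies or pseudogenes named after them. Strand use in counting is not given in the sources used here, so values of these genes can hold reads of such neighbours or copies and are uncertain to that extent.

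Promoter windows were searched for short motifs of cell-cycle genes. Windows of 300 bases (250 before to 50 from the start of transcription, RefSeq, GRCm38.p6) of 36 of the 46 genes entered the search, 40 windows in all. No window of Ccnd1, Ccnd2, Ccne2, Mcm4, Gins2, Ccna2, Aurkb, Kif20a, Tpx2 or Stmn1 entered it. The counts for each role below therefore leave these genes out. The search covered 3 motifs on both strands, and a base could belong to more than one match: the cell-cycle gene homology region (CHR; TTTGAA or TTTAAA), the CCAAT box (CCAAT) and E2F-type sites (TTTCGCGC, TTTGGCGC, TTTCCCGC or TTTGCCGC). A CHR match was found in 16 of 17 G2 and mitosis windows, 5 of 15 licensing and S phase windows and 1 of 8 windows of the D and E cyclin role, and in 27.5% of 32544 mouse windows. CCAAT was in 16, 11 and 2 of those windows and in 37.4% of all. E2F-type letters were in 1 of 17 G2 and mitosis windows, 7 of 15 of licensing and S phase and 1 of 8 of the D and E cyclin role, against 2.28% of all. As background, the CHR and CCAAT elements are where repressor and activator complexes time mitotic genes, and E2F sites time S phase genes. A match is a description of letters, not evidence of a bound factor. The windows of 5 genes are printed 5′ to 3′, with every match in capitals, because they show these arrangements in genes that carry the results below.
Cdk1: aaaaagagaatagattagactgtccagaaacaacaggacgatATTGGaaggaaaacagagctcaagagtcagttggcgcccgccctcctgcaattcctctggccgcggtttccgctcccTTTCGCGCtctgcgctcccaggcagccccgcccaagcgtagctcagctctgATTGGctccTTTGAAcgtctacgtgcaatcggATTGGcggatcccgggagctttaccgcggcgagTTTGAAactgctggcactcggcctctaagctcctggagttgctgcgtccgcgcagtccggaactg
Ccnb1: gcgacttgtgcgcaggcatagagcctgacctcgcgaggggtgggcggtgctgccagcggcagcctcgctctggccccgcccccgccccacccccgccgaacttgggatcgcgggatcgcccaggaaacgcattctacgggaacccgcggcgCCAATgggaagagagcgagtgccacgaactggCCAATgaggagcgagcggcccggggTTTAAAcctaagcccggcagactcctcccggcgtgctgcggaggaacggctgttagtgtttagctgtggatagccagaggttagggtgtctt
Top2a: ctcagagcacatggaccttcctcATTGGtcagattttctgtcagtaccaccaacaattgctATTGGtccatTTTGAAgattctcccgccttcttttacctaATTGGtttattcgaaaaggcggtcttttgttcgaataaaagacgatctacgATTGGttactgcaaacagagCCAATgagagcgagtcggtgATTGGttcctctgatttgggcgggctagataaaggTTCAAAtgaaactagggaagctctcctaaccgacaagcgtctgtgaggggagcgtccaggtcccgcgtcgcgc
Mcm5: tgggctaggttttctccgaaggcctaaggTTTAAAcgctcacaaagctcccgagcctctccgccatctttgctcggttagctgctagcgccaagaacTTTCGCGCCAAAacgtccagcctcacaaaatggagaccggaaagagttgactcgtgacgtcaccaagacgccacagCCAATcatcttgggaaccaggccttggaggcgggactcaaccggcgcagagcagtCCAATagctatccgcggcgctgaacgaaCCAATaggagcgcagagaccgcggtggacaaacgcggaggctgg
Mcm6: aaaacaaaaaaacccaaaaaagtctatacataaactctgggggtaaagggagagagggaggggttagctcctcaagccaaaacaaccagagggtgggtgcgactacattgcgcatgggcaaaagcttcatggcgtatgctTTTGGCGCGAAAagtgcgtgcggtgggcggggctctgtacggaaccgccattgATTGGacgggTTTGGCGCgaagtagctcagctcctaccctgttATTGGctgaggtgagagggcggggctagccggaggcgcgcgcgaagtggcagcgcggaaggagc
The Cdk1 window (chr10:69352863-69353162, - strand) held CHR letters beginning at positions -71 and -15, CCAAT letters at -208, -80 and -48, and an E2F-type match at -131, counted from the start of transcription at 1. In Ccnb1 (chr13:100786437-100786736, - strand) a single CHR match lay at -42, downstream of CCAAT letters at -99 and -67. Top2a (chr11:99024140-99024439, - strand) had CHR letters at -179 and -23 with 6 CCAAT matches between -227 and -58. The helicase gene Mcm5 (chr8:75109259-75109558, + strand) had overlapping E2F-type matches at -153 and -149, a CHR match at -221, and CCAAT letters at -77, -22 and 7. Mcm6 (chr1:128359656-128359955, - strand) had 3 E2F-type and 2 CCAAT matches and no CHR letters.

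The first question the design poses is how the transgenes change these genes at each age, in mice that lack Nlrp3 and in mice that have it. At 6 and 12 months, in both Nlrp3 backgrounds, the summed level of the 22 G2 and mitosis genes was higher in every untagged library with the transgenes than in any without them of that age and background; how many of the genes passed the test is given below. It averaged 242 ± 11.1 CPM in APPPS1_6m and 144 ± 18.9 CPM in WT_6m libraries (SD, n = 3 and 5), and 247 ± 55.8 CPM in APPPS1_12m and 149 ± 28.9 CPM in WT_12m libraries (SD, n = 5 and 3). Without Nlrp3 it averaged 251.3 ± 23.4 CPM in APPPS1_NLRP3_6m and 147 ± 31.1 CPM in NLRP3_6m libraries (SD, n = 5 and 4). At 12 months the averages were 272 ± 38.5 CPM in APPPS1_NLRP3_12m and 152 ± 15.2 CPM in NLRP3_12m libraries (SD, n = 4 each). The ratios of these means were 1.68, 1.65, 1.71 and 1.79, and in none of the 4 pairs did the libraries overlap. Stmn1, which was not called in any transgene comparison, weighs most in these sums. It averaged 50.05 CPM over 61 libraries, beside 16.2 CPM for Top2a, the next highest of the 22 genes. At 4 months the ratios were 1.35 with Nlrp3 and 1.32 without it, and both pairs overlapped. For the Mxo4 pairs they were 1.598 with Nlrp3, where replicate 56 lay among the WT_12m_Mxo4 libraries (1.79 without it, with no overlap), and 1.93 without Nlrp3, with no overlap. Licensing and S phase genes had smaller ratios, 1.098 and 1.05 at 4 months with and without Nlrp3, where only the pair without it overlapped. At 6 and 12 months they were 1.18 and 1.29 in mice with Nlrp3 and 1.39 and 1.32 in mice without it. Of those pairs only the 6-month one without Nlrp3 overlapped (lowest APPPS1_NLRP3_6m sum 326.3 CPM, highest NLRP3_6m sum 339.8 CPM). For the D and E cyclin role the ratios were 0.976, 1.29, 1.20 and 1.14, and their libraries overlapped in the first and the last of those pairs.

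**Figure D1:**
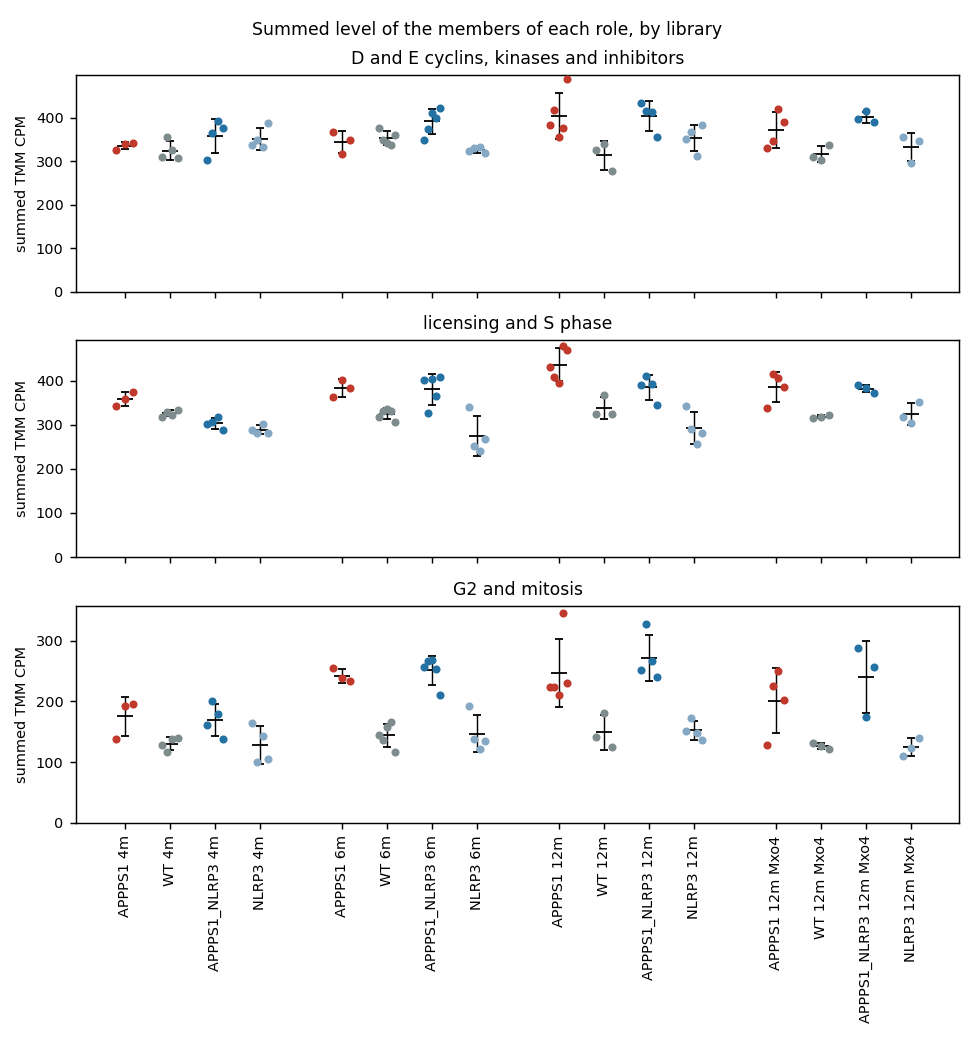
Summed TMM CPM of the members of each role (y axes, from 0) in each library (points), with the mean and SD of each of the 16 groups (x axis). In the G2 and mitosis panel the APPPS1_12m libraries sit between 211 and 346, above all WT_12m libraries, and the low APPPS1_12m_Mxo4 point at 127 is replicate 56.

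Gene by gene, at 4 months no member was called (edgeR's quasi-likelihood test, adjusted p under 0.05 over 19865 genes) in either background, where 0.0252% and 0.0101% of all genes were called. At an unadjusted p under 0.05 there were 12 members for APPPS1_4m minus WT_4m and 7 for APPPS1_NLRP3_4m minus NLRP3_4m, against 2.54% and 4.46% of all genes, and DESeq2 called 0 in both. Every transgenic library was above every library of its comparison group for 12 members with Nlrp3 and 3 without it, beside 3.3% and 1.68% of all genes. The 4-month medians of the G2 and mitosis genes were already above 0, at 0.50 with Nlrp3 and 0.47 without it on the log2 scale, with 20 and 21 of 22 values positive, beside medians of 0.01 and -0.003 over all genes. Averaged over both backgrounds, the 4-month difference still called 0 members by edgeR and by DESeq2, with 20 at an unadjusted p under 0.05 against 5.6% of all genes, and the smallest adjusted p was 0.336 for Top2a (0.79 ± 0.22).

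At 6 months, APPPS1_6m minus WT_6m called 10 members higher and 0 lower, where 2.06% of all genes were higher and 3.03% moved either way. They were 7 G2 and mitosis genes, 2 of licensing and S phase (Rrm2 and Uhrf1) and Cdkn2c. APPPS1_NLRP3_6m minus NLRP3_6m called 23 higher and 0 lower, against 6.16% of all genes higher, 1.87% lower and 8.03% either way: 13 of G2 and mitosis, 8 of licensing and S phase, and Cdkn1a and Cdkn2c. The G2 and mitosis medians were 0.91 with Nlrp3 and 0.998 without it, the licensing and S phase medians 0.28 and 0.54, and the D and E cyclin medians 0.03 and 0.25, beside -0.03 and -0.04 over all genes. With no overlap between groups, 27 members were higher with Nlrp3 and 20 without it, beside 8.42% and 7.06% of all genes. A term for the first number in the library titles, whose meaning is not stated, left 0 members called with Nlrp3, with a G2 and mitosis median of 0.53. Within the libraries whose second title number was 1 or 2 those medians were 1.16 and 0.69 with Nlrp3 and 1.10 and 0.81 without it. With number 1, APPPS1_6m held only replicate 22 and replicate 21 of 659 counts, so no count is given for that split. Number 2 called 2 members with Nlrp3, and numbers 1 and 2 called 7 and 3 without it. Leaving out WT_6m replicate 17 or APPPS1_6m replicate 22, 23 or 24 left 4 members called with Nlrp3, leaving out WT_6m replicate 20 left 5, and leaving out NLRP3_6m replicate 32 or 33 left 11 without it.

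At 12 months, APPPS1_12m minus WT_12m called 24 members higher and 0 lower, where 11.1% of all genes were higher and 18.1% moved either way. Of these, 14 were G2 and mitosis genes, 6 belonged to licensing and S phase and 4 to the D and E cyclin role (Ccne1, Cdk4, Cdkn1a and Cdkn2c). APPPS1_NLRP3_12m minus NLRP3_12m called 22 higher, 15 of them G2 and mitosis genes, and Ccnd2 lower, against 5.53% of all genes higher, 3.17% lower and 8.69% either way. With no overlap, 21 members were higher with Nlrp3 and 20 without it, beside 7.92% and 6.96% of all genes. The G2 and mitosis medians were 1.15 with Nlrp3 and 1.38 without it, the licensing and S phase medians 0.41 and 0.39, and the D and E cyclin medians 0.35 and 0.27. A term for the first title number left 13 members called with Nlrp3. Within second title number 1 or 2 the G2 and mitosis medians were 1.32 and 0.53 with Nlrp3 and 1.33 and 1.11 without it. Number 2 called 15 members with Nlrp3, and number 1 called 11 without it. WT_12m held only replicate 40 with number 1, and NLRP3_12m only replicate 42 with number 2, so no count is given for those splits. Without APPPS1_12m replicate 38, which held the most monocyte and neutrophil RNA and the highest G2 and mitosis sum (346 CPM), 19 members were called and that median was 0.84; without WT_12m replicate 34 or 40, 15 were called.

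In the Mxo4 set, APPPS1_12m_Mxo4 minus WT_12m_Mxo4 called 5 members higher (Cdk6, Cdkn1a, Rrm2, Cdk1 and Birc5) and Ccnd2 lower, against 3.44% and 1.64% of all genes, 5.08% in all, and 8 members were higher with no overlap, beside 4.66%. Without replicate 56 there were 19 called members, 17 higher and 2 lower, against 12.6% of all genes in either direction, 28 members were higher with no overlap, beside 14.5%, and the G2 and mitosis median was 1.04 where it had been 0.77. Leaving out any 1 of the other 6 libraries left 1 to 4 members called. APPPS1_NLRP3_12m_Mxo4 minus NLRP3_12m_Mxo4 called 11 higher and 0 lower, against 3.5% of all genes higher and 5.14% either way, and 23 members were higher with no overlap, beside 12.8%. Leaving out 1 library at a time gave 3 to 13: 3 without NLRP3_12m_Mxo4 replicate 50, 5 without APPPS1_NLRP3_12m_Mxo4 replicate 52 and 6 without replicate 54 of that group.

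**Figure D2:**
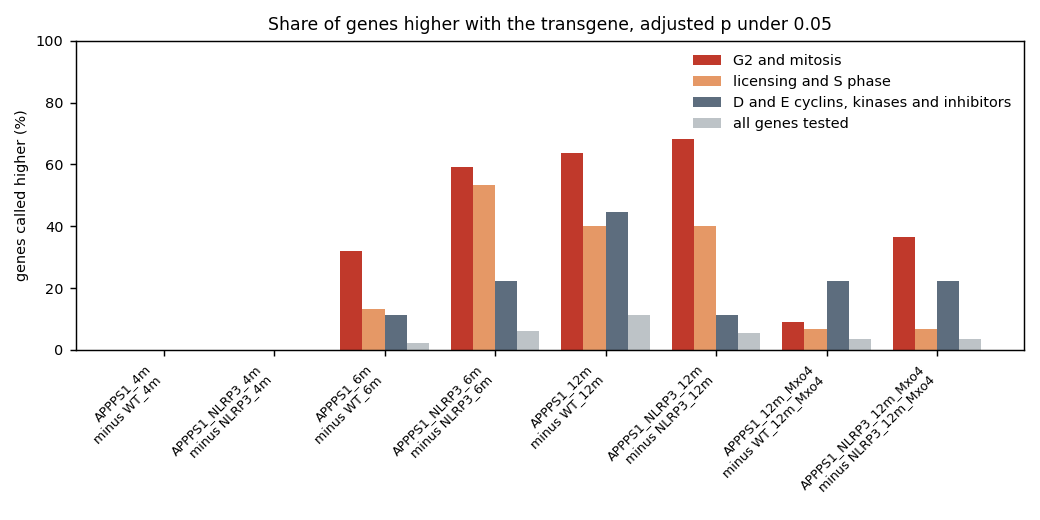
Percentage of genes called higher with the transgenes (y axis, from 0) in each of the 8 comparisons (x axis), as bars for the 3 roles and for all 19865 genes tested. The G2 and mitosis bar is above the bar of all genes from 6 months on, and the 4-month pairs have no bar for any role.

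Across the 8 transgene comparisons, which share no library, 31 of the 46 members were called higher at least once, against 14.3% of all genes: 17 of 22 in G2 and mitosis, 9 of 15 in licensing and S phase and 5 of 9 in the D and E cyclin role. Ccnd2 alone was called lower, and 14 members were never called. All counts in this paragraph keep replicate 56, and without it Mcm4 was also called higher and Ccnd1 lower for APPPS1_12m_Mxo4. There were 30 members with a positive log2 difference in all 8, of which 19 were G2 and mitosis genes. In both backgrounds at the same age, 8 members were called higher at 6 months, 17 at 12 months and 4 in the Mxo4 set, against 1.56%, 4.16% and 2.23% of all genes. Cdk1 and Rrm2 were called in 6 comparisons, and Top2a, Birc5 and Cdkn2c in 5.

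**Figure D3:**
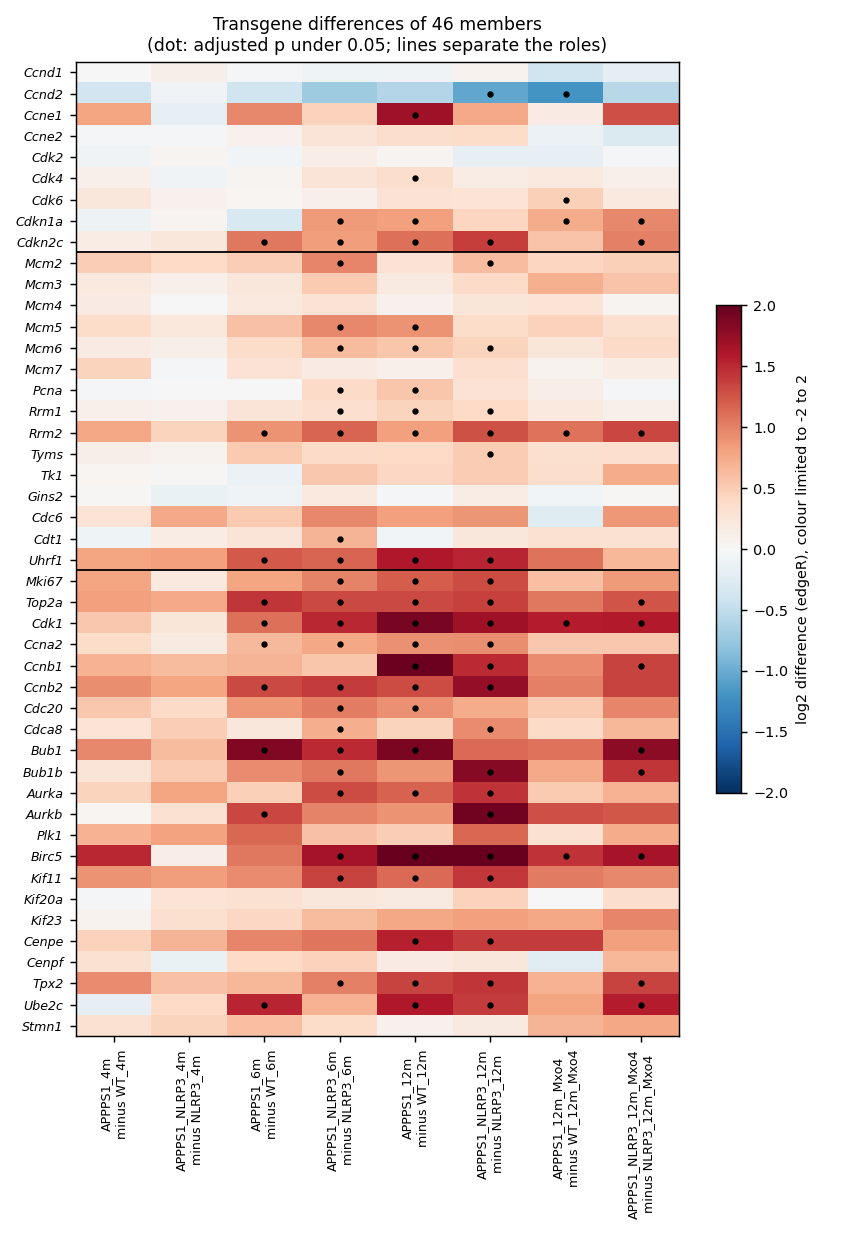
Log2 differences (colour) of the 46 members (rows, in 3 blocks by role) in the 8 transgene comparisons (columns, by age), with a dot where the adjusted p was under 0.05. Cdk1 and Rrm2 carry 6 dots each, in every column after 4 months, and Ccnd2 is blue throughout.

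Among the G2 and mitosis genes, Cdk1 (ENSMUSG00000019942, chr10:69335146-69352938, - strand), the kinase that drives entry into mitosis, was called in all 6 transgene comparisons after 4 months. At 4 months it had 6.23, 7.58 and 8.87 CPM in APPPS1_4m libraries, against 4.96, 6.42, 4.62 and 4.81 CPM in WT_4m libraries, and 5.73, 7.92, 6.603 and 6.54 CPM in APPPS1_NLRP3_4m libraries, against 6.15, 3.93, 6.08 and 6.34 CPM in NLRP3_4m libraries. The 4-month groups lay close together and overlapped in both backgrounds. At 6 months the values were 10.9, 13.1 and 11.8 CPM in APPPS1_6m libraries, against 5.46, 5.43, 4.78, 7.56 and 4.41 CPM in WT_6m libraries. Without Nlrp3 they were 23.5, 11.4, 14.2, 13.2 and 13.9 CPM in APPPS1_NLRP3_6m libraries, against 7.93, 4.25, 5.102 and 4.08 CPM in NLRP3_6m libraries. All transgenic libraries were above all others of their age and background, with log2 differences of 1.10 ± 0.25 (adjusted p = 0.00649) and 1.52 ± 0.24 (adjusted p = 1.64e-05). At 12 months Cdk1 reached 18.3, 14.1, 12.8, 21.6 and 26.2 CPM in APPPS1_12m libraries, against 4.36, 6.34 and 4.305 CPM in WT_12m libraries. In the Nlrp3-lacking mice it had 17.04, 15.8, 14.3 and 12.5 CPM in APPPS1_NLRP3_12m libraries, against 4.998, 3.63, 4.02 and 5.08 CPM in NLRP3_12m libraries. Again no library overlapped, and the differences were 1.89 ± 0.28 (adjusted p = 1.09e-06) and 1.69 ± 0.27 (adjusted p = 1.41e-05). In the Mxo4 set it had 4.01, 15.5, 14.6 and 12.3 CPM in APPPS1_12m_Mxo4 libraries, against 4.39, 4.08 and 3.405 CPM in WT_12m_Mxo4 libraries, where the low value is replicate 56. Mxo4 libraries without Nlrp3 held 14.8, 12.1 and 13.7 CPM in APPPS1_NLRP3_12m_Mxo4 libraries, against 4.23, 3.6 and 5.67 CPM in NLRP3_12m_Mxo4 libraries. The differences were 1.56 ± 0.29 (adjusted p = 0.000297), or 1.88 ± 0.25 (adjusted p = 1.12e-07) without replicate 56, and 1.58 ± 0.30 (adjusted p = 0.000266).

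Mki67 (ENSMUSG00000031004, chr7:135689784-135716361, - strand), whose protein coats mitotic chromosomes and is the usual stain for dividing cells, was called in 3 comparisons. At 4 months it had 9.25, 14.1 and 12.2 CPM in APPPS1_4m libraries, against 5.77, 4.305, 8.11 and 8.82 CPM in WT_4m libraries, and 11.1, 13.02, 7.47 and 8.42 CPM in APPPS1_NLRP3_4m libraries, against 12.9, 6.24, 11.5 and 4.35 CPM in NLRP3_4m libraries. The first of these pairs did not overlap, and the second did. At 6 months there were 13.3, 12.6 and 15.9 CPM in APPPS1_6m libraries, against 6.29, 9.62, 10.3, 10.4 and 3.62 CPM in WT_6m libraries, and 20.2, 14.1, 19.1, 16.2 and 7.64 CPM in APPPS1_NLRP3_6m libraries, against 9.13, 7.999, 8.35 and 5.78 CPM in NLRP3_6m libraries. The APPPS1_6m libraries were all above the WT_6m libraries, yet the difference missed the threshold at 0.79 ± 0.33 (adjusted p = 0.198), whereas the one without Nlrp3 was called at 0.99 ± 0.32 (adjusted p = 0.0435) with 1 low transgenic library. At 12 months Mki67 had 8.77, 11.5, 12.4, 24.4 and 7.81 CPM in APPPS1_12m libraries, against 6.45, 5.43 and 4.87 CPM in WT_12m libraries, and 13.3, 22.4, 21.2 and 14.1 CPM in APPPS1_NLRP3_12m libraries, against 9.99, 6.54, 6.32 and 5.76 CPM in NLRP3_12m libraries. Neither pair overlapped, and both were called, at 1.21 ± 0.37 (adjusted p = 0.0155) and 1.30 ± 0.35 (adjusted p = 0.011). The first call was lost without APPPS1_12m replicate 38, the highest library, or WT_12m replicate 39 or 40, the second without NLRP3_12m replicate 48, and the 6-month call without any of 8 of its 9 libraries. In the Mxo4 set there were 7.98, 19.8, 20.6 and 17.2 CPM in APPPS1_12m_Mxo4 libraries, against 11.8, 11.5 and 8.805 CPM in WT_12m_Mxo4 libraries, and 21.7, 10.1 and 19.1 CPM in APPPS1_NLRP3_12m_Mxo4 libraries, against 6.696, 8.68 and 13.4 CPM in NLRP3_12m_Mxo4 libraries. Both Mxo4 pairs overlapped, with differences of 0.60 ± 0.36 (adjusted p = 0.409), or 0.84 ± 0.37 (adjusted p = 0.135) without replicate 56, and 0.84 ± 0.39 (adjusted p = 0.234).

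Top2a (ENSMUSG00000020914, chr11:98992943-99024189, - strand), the topoisomerase that untangles sister chromatids, had 8.52, 17.7 and 21.8 CPM in APPPS1_4m libraries, against 8.74, 8.02, 7.96 and 11.9 CPM in WT_4m libraries, and 16.8, 20.9, 15.4 and 11.3 CPM in APPPS1_NLRP3_4m libraries, against 11.9, 7.05, 12.9 and 6.09 CPM in NLRP3_4m libraries. At 6 months it had 20.1, 25.5 and 22.1 CPM in APPPS1_6m libraries, against 7.12, 9.28, 10.7, 8.58 and 5.67 CPM in WT_6m libraries, and 27.3, 36.2, 29.9, 29.6 and 24.7 CPM in APPPS1_NLRP3_6m libraries, against 20.4, 12.1, 8.54 and 6.17 CPM in NLRP3_6m libraries. Groups overlapped at 4 months and were apart at 6 months, with differences of 1.43 ± 0.30 (adjusted p = 0.00233) and 1.32 ± 0.29 (adjusted p = 0.00126). At 12 months there were 18.7, 22.4, 21.3, 39.3 and 14.5 CPM in APPPS1_12m libraries, against 10.8, 10.7 and 8.002 CPM in WT_12m libraries, and 23.9, 33.9, 24.4 and 23.8 CPM in APPPS1_NLRP3_12m libraries, against 11.03, 13.8, 7.07 and 10.3 CPM in NLRP3_12m libraries. Both pairs were again apart, at 1.32 ± 0.32 (adjusted p = 0.0023) and 1.37 ± 0.32 (adjusted p = 0.00253). Mxo4 libraries held 8.13, 17.1, 24.1 and 16.5 CPM in APPPS1_12m_Mxo4 libraries, against 9.77, 6.96 and 7.59 CPM in WT_12m_Mxo4 libraries, and 31.7, 18.1 and 30.3 CPM in APPPS1_NLRP3_12m_Mxo4 libraries, against 7.997, 9.69 and 14.8 CPM in NLRP3_12m_Mxo4 libraries. The second of these was called at 1.26 ± 0.35 (adjusted p = 0.0197); the first gave 1.06 ± 0.33 (adjusted p = 0.0501), or 1.33 ± 0.33 (adjusted p = 0.00349) without replicate 56. The call without Nlrp3 was lost without NLRP3_12m_Mxo4 replicate 50 or 51 or APPPS1_NLRP3_12m_Mxo4 replicate 52 or 54.

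Cyclin B1 (Ccnb1), the partner of Cdk1, had its widest differences at 12 months, with 11.3, 8.01, 8.08, 15.1 and 10.4 CPM in APPPS1_12m libraries, against 2.08, 3.57 and 2.48 CPM in WT_12m libraries. Without Nlrp3 it had 11.04, 12.6, 8.84 and 11.4 CPM in APPPS1_NLRP3_12m libraries, against 5.24, 5.08, 2.39 and 3.54 CPM in NLRP3_12m libraries. No transgenic library fell among the others, and the differences were 1.96 ± 0.36 (adjusted p = 4.05e-05) and 1.498 ± 0.34 (adjusted p = 0.0019), against 0.69 ± 0.32 (adjusted p = 0.247) and 0.56 ± 0.30 (adjusted p = 0.285) at 6 months. Birc5, or survivin, a subunit of the complex that corrects chromosome attachment, had 4.92, 3.55, 4.57, 5.45 and 4.12 CPM in APPPS1_12m libraries, against 1.14, 1.01 and 1.13 CPM in WT_12m libraries. It had 6.13, 6.57, 5.49 and 6.55 CPM in APPPS1_NLRP3_12m libraries, against 1.95, 0, 1.59 and 1.25 CPM in NLRP3_12m libraries. These groups were apart by a wide margin, with differences of 2.07 ± 0.41 (adjusted p = 0.000147) and 2.06 ± 0.39 (adjusted p = 0.000182), and Birc5 also gave 1.66 ± 0.36 (adjusted p = 0.000967) for APPPS1_NLRP3_6m and 1.05 ± 0.36 (adjusted p = 0.101), not called, for APPPS1_6m. The 0 is NLRP3_12m replicate 45, the shallow library, and without it the 12-month call held.

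Cyclin A2 (Ccna2), which acts from S phase into G2, had the highest level per kilobase of the cyclins of this role, 3.91 CPM per kb. At 12 months it had 21.2, 16.4, 15.03, 29.7 and 24.9 CPM in APPPS1_12m libraries, against 12.7, 10.7 and 11.4 CPM in WT_12m libraries, and 25.6, 28.8, 25.6 and 18.4 CPM in APPPS1_NLRP3_12m libraries, against 15.3, 10.9, 10.4 and 13.3 CPM in NLRP3_12m libraries. The pairs did not overlap and gave 0.92 ± 0.18 (adjusted p = 0.000172) and 0.92 ± 0.18 (adjusted p = 0.000278), with 0.65 ± 0.17 and 0.77 ± 0.16 at 6 months, both called. Bub1b, or BubR1, a kinase of the spindle checkpoint, had 7.56, 9.597, 8.23 and 9.37 CPM in APPPS1_NLRP3_12m libraries, against 3.96, 1.45, 1.9 and 1.82 CPM in NLRP3_12m libraries. It had 6.56, 8.33, 7.77, 13.8 and 3.04 CPM in APPPS1_12m libraries, against 2.42, 5.11 and 5.44 CPM in WT_12m libraries. The first pair was apart and called at 1.82 ± 0.35 (adjusted p = 0.000215), and the second overlapped at 0.88 ± 0.34 (adjusted p = 0.0614). Of the other mitotic genes, the ubiquitin-conjugating enzyme Ube2c, the checkpoint kinase Bub1, cyclin B2 (Ccnb2) and the spindle factor Tpx2 were each called in 4 comparisons. Those never called were Plk1, Kif20a, Kif23, Cenpf and Stmn1. Over the 8 comparisons the log2 difference of Plk1, the kinase that acts with Cdk1 at mitotic entry, ran between 0.31 and 1.15, and that of the motor gene Kif20a between -0.03 and 0.46.

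**Figure D4:**
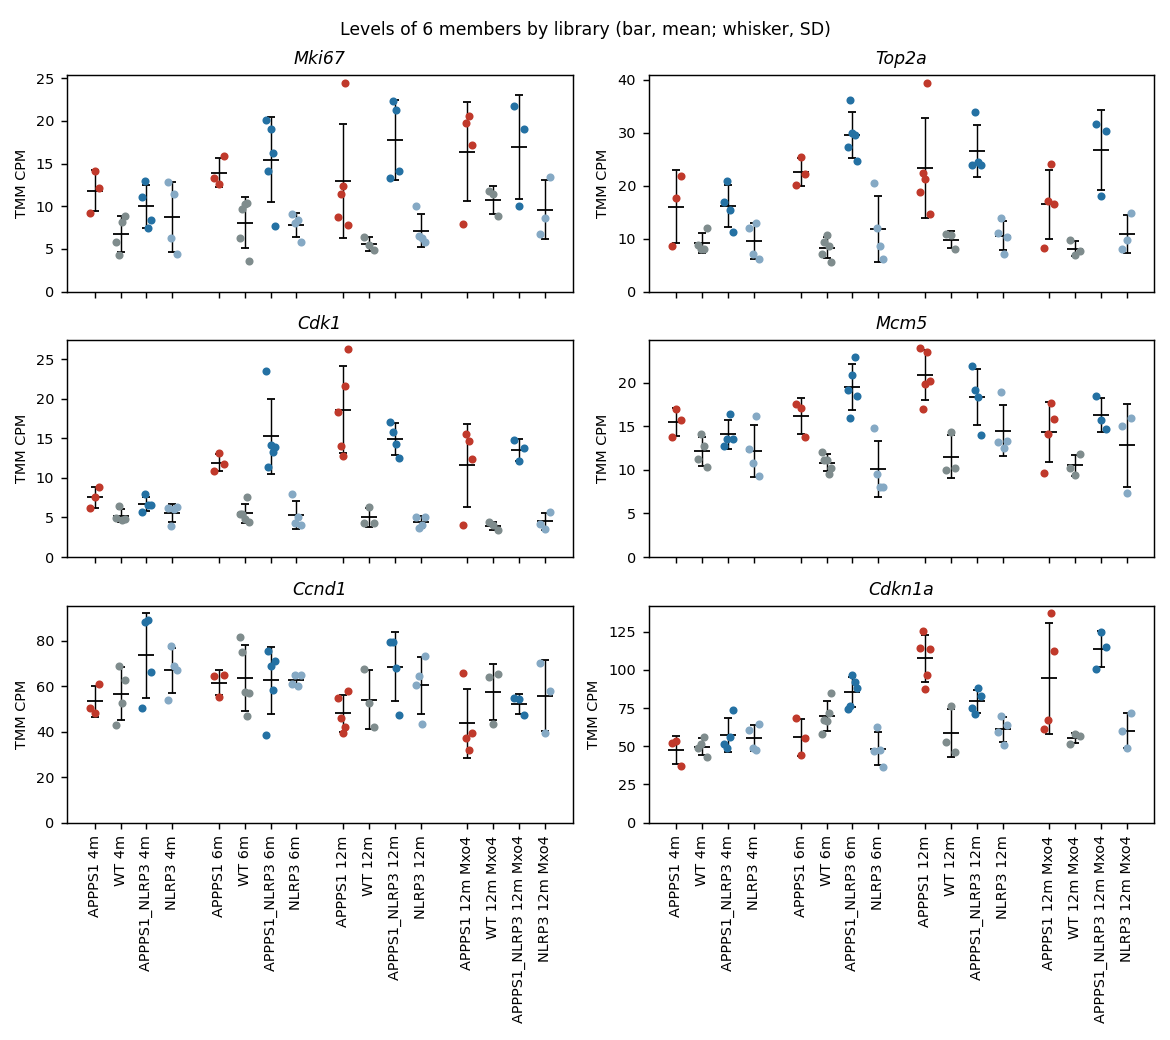
TMM CPM (y axes, from 0) of Mki67, Top2a, Cdk1, Mcm5, Ccnd1 and Cdkn1a in each library (points), with the mean and SD of the 16 groups (x axes). Untagged libraries with the transgenes lie between 10.9 and 26.2 for Cdk1 at 6 and 12 months, above all untagged libraries without the transgenes, and Ccnd1 groups overlap.

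Of the licensing and S phase genes, 9 of 15 were called higher at least once with the transgenes. Mcm5 (ENSMUSG00000005410, chr8:75109569-75128439, + strand), a subunit of the replicative helicase, had 13.8, 16.99 and 15.7 CPM in APPPS1_4m libraries, against 11.3, 14.1, 12.7 and 10.3 CPM in WT_4m libraries, and 12.8, 13.6, 16.4 and 13.5 CPM in APPPS1_NLRP3_4m libraries, against 12.4, 10.8, 16.2 and 9.29 CPM in NLRP3_4m libraries. At 6 months it had 17.6, 17.1 and 13.8 CPM in APPPS1_6m libraries, against 11.99, 11.2, 11.2, 9.47 and 10.2 CPM in WT_6m libraries, and 19.2, 16, 20.9, 22.9 and 18.4 CPM in APPPS1_NLRP3_6m libraries, against 14.8, 9.48, 8.07 and 7.98 CPM in NLRP3_6m libraries. Both 6-month pairs were apart, but only the second was called, at 0.95 ± 0.18 (adjusted p = 0.000197) beside 0.58 ± 0.19 (adjusted p = 0.0787). At 12 months there were 24.02, 16.97, 19.9, 23.5 and 20.2 CPM in APPPS1_12m libraries, against 9.94, 14.3 and 10.2 CPM in WT_12m libraries, and 21.9, 19.1, 18.4 and 14.01 CPM in APPPS1_NLRP3_12m libraries, against 13.2, 18.9, 12.5 and 13.3 CPM in NLRP3_12m libraries. Here the pair with Nlrp3 was apart and called at 0.90 ± 0.20 (adjusted p = 0.000715), while the other overlapped at 0.37 ± 0.19 (adjusted p = 0.26). Mxo4 libraries held 9.68, 14.1, 17.7 and 15.8 CPM in APPPS1_12m_Mxo4 libraries, against 10.2, 9.41 and 11.9 CPM in WT_12m_Mxo4 libraries, and 18.4, 15.7 and 14.7 CPM in APPPS1_NLRP3_12m_Mxo4 libraries, against 15.1, 7.36 and 15.97 CPM in NLRP3_12m_Mxo4 libraries, with neither called, at 0.46 ± 0.21 (adjusted p = 0.212) and 0.33 ± 0.22 (adjusted p = 0.486). Without replicate 56 the first was 0.65 ± 0.21 (adjusted p = 0.0277).

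Mcm2, another helicase subunit, had 18.3, 14.5, 19.4, 19.8 and 19.4 CPM in APPPS1_NLRP3_6m libraries, against 12.4, 6.15, 8.16 and 10.6 CPM in NLRP3_6m libraries, a pair that did not overlap, at 0.97 ± 0.18 (adjusted p = 0.000205). In mice with Nlrp3 its differences were 0.49 ± 0.19 at 6 months and 0.28 ± 0.20 at 12 months, neither called. Mcm6, one more subunit, was called in 3 comparisons and had 40.3, 36.4, 37.9, 35.7 and 43.5 CPM in APPPS1_NLRP3_6m libraries, against 28.1, 23.9, 20.8 and 27.1 CPM in NLRP3_6m libraries, again apart, at 0.63 ± 0.13 (adjusted p = 0.000847). Mcm4 and Mcm7 were not called in any of the 8. Without replicate 56, Mcm4 was called for APPPS1_12m_Mxo4 minus WT_12m_Mxo4 at 0.42 ± 0.13 (adjusted p = 0.0215). Pcna, the clamp that holds DNA polymerase on its template, had 126, 97.1, 90.01, 116 and 170.5 CPM in APPPS1_12m libraries, against 92.9, 79.5 and 75.8 CPM in WT_12m libraries. It was called there at 0.56 ± 0.12 (adjusted p = 0.000585), with 1 APPPS1_12m library below the highest WT_12m value. It was also called at 0.38 ± 0.11 (adjusted p = 0.0218) in 6-month mice without Nlrp3, a call lost without any of 5 libraries, but gave 0.00 ± 0.12 in 6-month mice with it.

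Uhrf1, which carries DNA methylation through replication, was scarce but separated the groups, with 7.06, 4.93, 5.64, 6.05 and 4.12 CPM in APPPS1_12m libraries, against 1.61, 2.88 and 1.09 CPM in WT_12m libraries. Without Nlrp3 it had 6.08, 5.43, 4.88 and 5.91 CPM in APPPS1_NLRP3_12m libraries, against 2.68, 0.726, 1.81 and 1.71 CPM in NLRP3_12m libraries. Neither pair overlapped, and both were called, at 1.60 ± 0.35 (adjusted p = 0.000559) and 1.52 ± 0.33 (adjusted p = 0.00145), as were the 6-month differences of 1.22 ± 0.32 and 1.16 ± 0.30. Rrm2, the small subunit of ribonucleotide reductase, is named here after its values were seen. Of this role it was called in the most comparisons, 6, with called differences from 0.82 ± 0.28 (adjusted p = 0.0354) for APPPS1_12m to 1.34 ± 0.31 (adjusted p = 0.00426) for APPPS1_NLRP3_12m_Mxo4, each against its group without the transgenes. Its partner Rrm1 was called in 3, with smaller differences of 0.34 ± 0.11, 0.45 ± 0.12 and 0.39 ± 0.12. In all, with replicate 56 kept, 6 of the 15 genes were not called in any transgene comparison: Mcm3, Mcm4, Mcm7, Tk1, Gins2 and Cdc6.

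The D and E cyclin role did not move as a block. Ccnd1 (ENSMUSG00000070348, chr7:144929931-144939925, - strand), the D cyclin that couples growth signals to the cycle, was not called in any transgene comparison. It had 50.5, 48.5 and 61.2 CPM in APPPS1_4m libraries, against 42.9, 69.02, 52.5 and 62.8 CPM in WT_4m libraries, and 50.4, 88.2, 89.4 and 66.4 CPM in APPPS1_NLRP3_4m libraries, against 54.1, 77.9, 68.97 and 67.3 CPM in NLRP3_4m libraries. At 6 months there were 64.6, 55.5 and 64.95 CPM in APPPS1_6m libraries, against 81.9, 75.3, 57.7, 46.8 and 57.2 CPM in WT_6m libraries, and 38.7, 75.6, 69.2, 58.6 and 71.2 CPM in APPPS1_NLRP3_6m libraries, against 61.2, 65.1, 60.4 and 64.98 CPM in NLRP3_6m libraries. All these groups overlapped, and the 6-month differences were -0.04 ± 0.16 (adjusted p = 0.991) and -0.08 ± 0.14 (adjusted p = 0.806). At 12 months the values were 54.7, 46.1, 39.4, 42.2 and 57.9 CPM in APPPS1_12m libraries, against 67.7, 52.9 and 42.1 CPM in WT_12m libraries, and 79.5, 79.6, 68.2 and 47.6 CPM in APPPS1_NLRP3_12m libraries, against 60.5, 64.6, 43.6 and 73.5 CPM in NLRP3_12m libraries. Mxo4 libraries held 65.98, 37.2, 32.1 and 39.3 CPM in APPPS1_12m_Mxo4 libraries, against 64.1, 43.4 and 65.4 CPM in WT_12m_Mxo4 libraries, and 55.04, 54.5 and 47.3 CPM in APPPS1_NLRP3_12m_Mxo4 libraries, against 70.3, 39.4 and 58.1 CPM in NLRP3_12m_Mxo4 libraries. The widest difference was -0.40 ± 0.16 (adjusted p = 0.163) for APPPS1_12m_Mxo4, which became -0.55 ± 0.17 (adjusted p = 0.0271) without replicate 56.

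Cyclin D2 (Ccnd2) had a negative difference in all 8 comparisons and was called lower in 2. It had 6.08, 7.64, 4.88 and 9.64 CPM in APPPS1_NLRP3_12m libraries, against 7.86, 10.2, 26.1 and 12.3 CPM in NLRP3_12m libraries, which overlap, and 5.82, 3.47, 3.54 and 2.89 CPM in APPPS1_12m_Mxo4 libraries, against 8.96, 7.503 and 10.6 CPM in WT_12m_Mxo4 libraries, which do not. The differences were -1.03 ± 0.31 (adjusted p = 0.0233) and -1.19 ± 0.33 (adjusted p = 0.02), and the second was -1.50 ± 0.35 (adjusted p = 0.0022) without replicate 56. The first call was lost without APPPS1_NLRP3_12m replicate 43 or 46 or NLRP3_12m replicate 47, and the second without any one of 5 libraries. NLRP3_12m replicate 47, the library with 26.1 CPM, held the highest marker sums of neurons (1201 CPM), oligodendrocyte precursors (217 CPM) and oligodendrocytes (995.7 CPM) of all libraries. The part of these cells in the Ccnd2 difference was not tested. The E cyclin Ccne1 was near the lower end of detection, with 1.497, 1.59, 1.31, 1.55 and 2.82 CPM in APPPS1_12m libraries, against 0.537, 0.958 and 0.174 CPM in WT_12m libraries, and was called there at 1.70 ± 0.56 (adjusted p = 0.0259). That call was lost without WT_12m replicate 34 or 40 or APPPS1_12m replicate 41. Cdk4, the kinase of D cyclins, had 129, 148, 134, 133 and 216 CPM in APPPS1_12m libraries, against 119.8, 126 and 113 CPM in WT_12m libraries, apart and called at 0.36 ± 0.11 (adjusted p = 0.016). That call, too, was lost without any one of those 3 libraries. Cdk2 and Ccne2 were not called.

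Both inhibitors among the 46 were called higher with the transgenes, Cdkn1a in 4 comparisons and Cdkn2c in 5. Cdkn1a (ENSMUSG00000023067, chr17:29090976-29100727, + strand), or p21, an inhibitor of cyclin-dependent kinases that p53 controls, had 52.1, 53.6 and 37.3 CPM in APPPS1_4m libraries, against 48.7, 51.7, 55.8 and 42.9 CPM in WT_4m libraries, and 51.7, 48.8, 55.8 and 73.7 CPM in APPPS1_NLRP3_4m libraries, against 60.5, 48.5, 47.8 and 64.3 CPM in NLRP3_4m libraries. At 6 months it had 68.4, 44.2 and 55.5 CPM in APPPS1_6m libraries, against 57.8, 67.1, 66.6, 71.8 and 84.8 CPM in WT_6m libraries, and 74.3, 76.3, 96.4, 92.3 and 88.3 CPM in APPPS1_NLRP3_6m libraries, against 46.6, 62.6, 47.7 and 36.6 CPM in NLRP3_6m libraries. The 6-month groups overlapped with Nlrp3, at -0.31 ± 0.18 (adjusted p = 0.373), and were apart without it, at 0.85 ± 0.16 (adjusted p = 0.000271). At 12 months there were 114, 126, 87.5, 96.5 and 114 CPM in APPPS1_12m libraries, against 53.04, 76.5 and 46.3 CPM in WT_12m libraries, and 75.2, 71.4, 87.95 and 82.8 CPM in APPPS1_NLRP3_12m libraries, against 59.5, 69.7, 50.96 and 63.8 CPM in NLRP3_12m libraries. Both pairs were apart, and the first was called at 0.82 ± 0.18 (adjusted p = 0.000674) beside 0.43 ± 0.17 (adjusted p = 0.122). Mxo4 libraries held 61.1, 67.3, 137 and 112 CPM in APPPS1_12m_Mxo4 libraries, against 51.6, 57.9 and 56.7 CPM in WT_12m_Mxo4 libraries, and 101, 125 and 115 CPM in APPPS1_NLRP3_12m_Mxo4 libraries, against 60.1, 49.1 and 71.8 CPM in NLRP3_12m_Mxo4 libraries. Neither pair overlapped, and both were called, at 0.75 ± 0.19 (adjusted p = 0.00938), or 0.89 ± 0.19 (adjusted p = 0.000681) without replicate 56, and 0.96 ± 0.20 (adjusted p = 0.00105). Cdkn2c, or p18, an inhibitor of Cdk4 and Cdk6, had at 12 months 8.62, 6.42, 6.83, 9.55 and 10.2 CPM in APPPS1_12m libraries, against 3.42, 4.21 and 3.96 CPM in WT_12m libraries, and 7.65, 6.82, 7.86 and 4.73 CPM in APPPS1_NLRP3_12m libraries, against 3.11, 0.726, 2.56 and 2.68 CPM in NLRP3_12m libraries. Its libraries did not overlap in either pair, with differences of 1.10 ± 0.24 (adjusted p = 0.000664) and 1.39 ± 0.24 (adjusted p = 6.76e-05), and it was also called at 6 months, at 1.06 ± 0.23 and 0.84 ± 0.22.

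Further genes of the pathway were read from lists outside the 46. Of 35 further mitosis genes, 8 were higher and 0 lower for APPPS1_6m, 16 and 1 for APPPS1_12m, 11 and 0 for APPPS1_NLRP3_6m, and 19 and 1 for APPPS1_NLRP3_12m, each against its group without the transgenes, where 2.06%, 11.1%, 6.16% and 5.53% of all genes were higher; the medians were 0.70, 0.91, 0.89 and 1.09. Of the same 35, 2 were higher and 0 lower for APPPS1_12m_Mxo4 (12 and 1 without replicate 56) and 4 and 0 for APPPS1_NLRP3_12m_Mxo4, against 3.44% and 3.5% of all genes higher, and at 4 months 0 were called by edgeR in either background. Without replicate 56, 1314 of all 19865 genes were higher and 1195 lower for APPPS1_12m_Mxo4. Pbk, a mitotic kinase, gave 1.76 ± 0.35 (adjusted p = 0.000171) at 12 months with Nlrp3, and Cdca3, a trigger of mitotic entry, 2.14 ± 0.41 (adjusted p = 0.000555) for APPPS1_12m_Mxo4 minus WT_12m_Mxo4, or 2.38 ± 0.42 (adjusted p = 2.96e-05) without replicate 56. Cks2, a small partner of Cdk1, gave 1.14 ± 0.21 (adjusted p = 4.94e-05) for APPPS1_12m minus WT_12m and 0.13 ± 0.20 for APPPS1_NLRP3_12m minus NLRP3_12m. Ncaph, a condensin subunit, was lower in both of those comparisons, at -0.70 ± 0.15 (adjusted p = 0.00057) and -0.58 ± 0.15 (adjusted p = 0.00937). Of 25 further replication genes, 0 were higher for APPPS1_6m, 4 for APPPS1_12m, 8 for APPPS1_NLRP3_6m and 2 for APPPS1_NLRP3_12m, and 0 lower, with medians of 0.26, 0.44, 0.44 and 0.39. The shares of all genes higher were again 2.06%, 11.1%, 6.16% and 5.53%, and the counts for APPPS1_12m and APPPS1_NLRP3_12m were near theirs. The chromatin assembly gene Chaf1b gave 2.01 ± 0.43 (adjusted p = 0.000433) for APPPS1_12m and Gins1 1.30 ± 0.29 (adjusted p = 0.00188) for APPPS1_NLRP3_12m, while the initiation factor Mcm10 gave 2.04 ± 0.46 (adjusted p = 0.00193) and the histone chaperone Asf1b 0.95 ± 0.22 (adjusted p = 0.00196) for APPPS1_NLRP3_6m. At 4 months and in the Mxo4 set 0 of the 25 were called by edgeR (2 for APPPS1_12m_Mxo4 without replicate 56, where 1314 of 19865 genes were higher).

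Of 18 transcription factors of the cycle, 2 were higher and 1 lower for APPPS1_12m minus WT_12m, where 11.1% of all genes were higher and 6.96% lower, which is close to the share over all genes. There was 1 higher for APPPS1_NLRP3_6m and 1 lower for APPPS1_NLRP3_12m, against 6.16% of all genes higher and 3.17% lower. E2f1, an activator of S phase genes, gave 1.11 ± 0.29 (adjusted p = 0.00868) at 6 months without Nlrp3, and E2f6, a repressor, 0.51 ± 0.15 (adjusted p = 0.0122) at 12 months with it. E2f3 was lower at -0.84 ± 0.19 (adjusted p = 0.000737) and E2f5 at -0.50 ± 0.14 (adjusted p = 0.0151). Of 17 tested inhibitors and p53 targets, 3 were higher and 2 lower for APPPS1_12m, against the same 11.1% and 6.96%. The stress gene Gadd45b gave 1.28 ± 0.23 (adjusted p = 9.49e-05) for APPPS1_NLRP3_6m and the stress gene Gadd45a 1.30 ± 0.31 (adjusted p = 0.00438) for APPPS1_NLRP3_12m_Mxo4. The p53 target Ccng1 gave 0.46 ± 0.12 (adjusted p = 0.00816) for APPPS1_NLRP3_12m, and the p53 target Sesn1 was lower for APPPS1_12m at -0.41 ± 0.11 (adjusted p = 0.00412). A list of microglial mitogens and receptors also held the myeloid factors Spi1, Runx1, Cebpa and Irf8, and Tgfb1, Tgfbr1 and Tgfbr2. Of its 14 tested genes, 5 were higher and 0 lower for APPPS1_12m, against 11.1% of all genes higher. Csf1, a growth factor for microglia, gave 1.59 ± 0.32 (adjusted p = 0.00198) and 2.25 ± 0.33 (adjusted p = 4.33e-06) at 6 months, and 2.82 ± 0.38 (adjusted p = 3.53e-07) and 2.37 ± 0.35 (adjusted p = 4.53e-06) at 12 months. For APPPS1_12m the growth factor Igf1 gave 4.79 ± 0.57 (adjusted p = 4.85e-08), the receptor chain Csf2ra 0.97 ± 0.20 (adjusted p = 0.000272) and the myeloid factor Irf8 0.61 ± 0.13 (adjusted p = 0.000445). The receptor Csf1r and its second ligand Il34 were not called in any of the 8, with differences of -0.25 ± 0.19 and -1.25 ± 0.56 for APPPS1_12m.

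The second question is how these genes change with age. Without the transgenes, 12 against 4 months called 0 members by edgeR in WT (2 at an unadjusted p under 0.05, 0 by DESeq2) and 0 in NLRP3 (2, and 1 by DESeq2), where 0.0252% and 0.418% of all genes were called and 5.16% and 14.3% had an unadjusted p under 0.05, with G2 and mitosis medians of 0.08 and -0.01. With them, APPPS1_NLRP3_6m minus APPPS1_NLRP3_4m called 7 members higher, against 4.15% of all genes, and the 3 with the smallest adjusted p were Cdk1 at 1.19 ± 0.24 (adjusted p = 0.00125), Rrm2 at 1.06 ± 0.25 (adjusted p = 0.00556) and Tyms, thymidylate synthase, at 0.57 ± 0.15 (adjusted p = 0.0114). The step from 4 to 6 months in APPPS1 called 0 members by edgeR, 7 at an unadjusted p under 0.05 and 1 by DESeq2, against 0.242% of all genes called and 11.7% at the unadjusted threshold, with a G2 and mitosis median of 0.42 beside 0.60 in APPPS1_NLRP3. APPPS1_12m minus APPPS1_6m called Cdkn1a higher at 0.91 ± 0.18 (adjusted p = 0.00152), Pcna higher at 0.47 ± 0.12 (adjusted p = 0.00838) and Ccnd2 lower at -1.01 ± 0.31 (adjusted p = 0.0211), against 15.3% of all genes in either direction. APPPS1_NLRP3_12m minus APPPS1_NLRP3_6m called 0 (1 at an unadjusted p under 0.05, 0 by DESeq2), against 1.07% and 10.9% of all genes. NLRP3_12m libraries were all male and NLRP3_4m libraries all female, so age and sex cannot be told apart in that comparison. APPPS1_NLRP3_6m held 2 female and 3 male libraries, APPPS1_NLRP3_4m only female ones and APPPS1_NLRP3_12m only male ones. With a term for sex, APPPS1_NLRP3_6m minus APPPS1_NLRP3_4m called 4 members.

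Whether the transgene difference itself grew with age was tested over both Nlrp3 backgrounds together. Between 4 and 6 months 0 members were called by edgeR or DESeq2, with 9 at an unadjusted p under 0.05, while 1.3% of all genes were called and 11.4% passed the unadjusted threshold. Cdk1 came closest at 0.91 ± 0.26 (adjusted p = 0.0558), and the G2 and mitosis median of this change was 0.41. Between 6 and 12 months 0 were called by either tool, with 2 at an unadjusted p under 0.05 against 11.8% of all genes, and edgeR called 0 of all 19865 genes. Ccnb1 came closest at 1.11 ± 0.32 (adjusted p = 0.168).

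The third question is whether loss of Nlrp3 changes these genes. The transgene difference in mice lacking Nlrp3, minus that in mice with it, was called for 0 members by edgeR and by DESeq2 at each age and in the Mxo4 set, with 2, 2, 0 and 1 members at an unadjusted p under 0.05 at 4, 6 and 12 months and in the Mxo4 set. Over all 19865 genes edgeR called 0, 3, 0 and 0, and 1.79%, 7.37%, 9.87% and 4.04% had an unadjusted p under 0.05. For Cdk1 these double differences were 0.42 ± 0.35 at 6 months and -0.20 ± 0.37 at 12 months, and for Mki67 they were 0.20 ± 0.46 and 0.10 ± 0.50. The smallest adjusted p was that of Cdkn1a at 6 months, 1.16 ± 0.24 (adjusted p = 0.0718). APPPS1_NLRP3_12m minus APPPS1_12m called Cdk6, a kinase of D cyclins, higher at 0.51 ± 0.13 (adjusted p = 0.0149) and Ccnd1 higher at 0.47 ± 0.14 (adjusted p = 0.0406), against 2.41% of all genes higher, 3.3% lower and 5.71% either way. The Cdk6 call was lost without APPPS1_12m replicate 35 or APPPS1_NLRP3_12m replicate 44, and the Ccnd1 call without any of 6 libraries. The APPPS1_NLRP3_12m group was male and the APPPS1_12m group female, so sex and Nlrp3 cannot be told apart in it, and with a term for sex 0 members were called. APPPS1_NLRP3 minus APPPS1 called 0 at 6 months (1 at an unadjusted p under 0.05, 0 by DESeq2) and 0 in the Mxo4 set (4, and 0 by DESeq2), against 0.488% and 0.287% of all genes called and 7.81% and 6.83% at the unadjusted threshold. NLRP3 minus WT called 0 at 6 months, 12 months and in the Mxo4 set (4, 5 and 1 at an unadjusted p under 0.05, and 0, 1 and 0 by DESeq2), against 0.443%, 1.47% and 0.0956% of all genes called and 9.82%, 15.3% and 5.37% at the unadjusted threshold. NLRP3_12m libraries were male and WT_12m libraries female, so sex and Nlrp3 cannot be told apart there or in the 12-month double difference.

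At 4 months the helicase gene Mcm3 (ENSMUSG00000041859, chr1:20802968-20820312, - strand) was the one member called, lower without Nlrp3 in both pairs. It had 24.1, 24.3, 25.7 and 40.9 CPM in APPPS1_NLRP3_4m libraries, against 69.5, 68.97 and 69.8 CPM in APPPS1_4m libraries, and 23.4, 19.9, 23.9 and 39.3 CPM in NLRP3_4m libraries, against 58.9, 64.9, 61.9 and 58.1 CPM in WT_4m libraries. No library overlapped, and the differences were -1.28 ± 0.29 (adjusted p = 0.0342) and -1.19 ± 0.27 (adjusted p = 0.0311), against 0.111% and 0.196% of all genes lower. Each is just inside the threshold: the first call was lost without any of 6 of its 7 libraries and the second without any of 7 of its 8, and both with no filter on low counts. At 6 and 12 months the difference was negative but not called, from -0.47 ± 0.27 to -0.86 ± 0.29. In the Mxo4 set it was -0.34 ± 0.30 and -0.20 ± 0.31. Single libraries without Nlrp3 differed widely at 12 months, with 70.7, 18.9, 21.3 and 22.6 CPM in NLRP3_12m, against 55.9, 71.8 and 63.5 CPM in WT_12m libraries. Over all ages Mcm3 ran from 17.7 to 70.7 CPM (median 36.3) in the 31 libraries without Nlrp3 and from 38.2 to 82.2 CPM (median 62.5) in the 30 with it, and 16 of the 31 were below every library of the others. Mcm3 lies on chromosome 1 and Nlrp3 on chromosome 11. Of 6 other tested genes within 1000000 bases of Mcm3, 0 were called by edgeR in any of the 8 Nlrp3 comparisons, with a smallest adjusted p of 0.193. The widest differences were those of Gm7658. It gave -3.47 ± 1.49 for APPPS1_NLRP3_4m minus APPPS1_4m and -3.26 ± 1.31 for NLRP3_4m minus WT_4m. The same differences were -2.50 ± 1.35 and -3.77 ± 1.26 at 6 months, and -0.69 ± 1.60 and 0.68 ± 1.83 at 12 months. In the Mxo4 set they were 1.84 ± 1.88 and -0.09 ± 2.96. This look at neighbours was added after the values were seen. The other 5 Mcm subunits among the 46 were not called in the Nlrp3 comparisons.

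**Figure D5:**
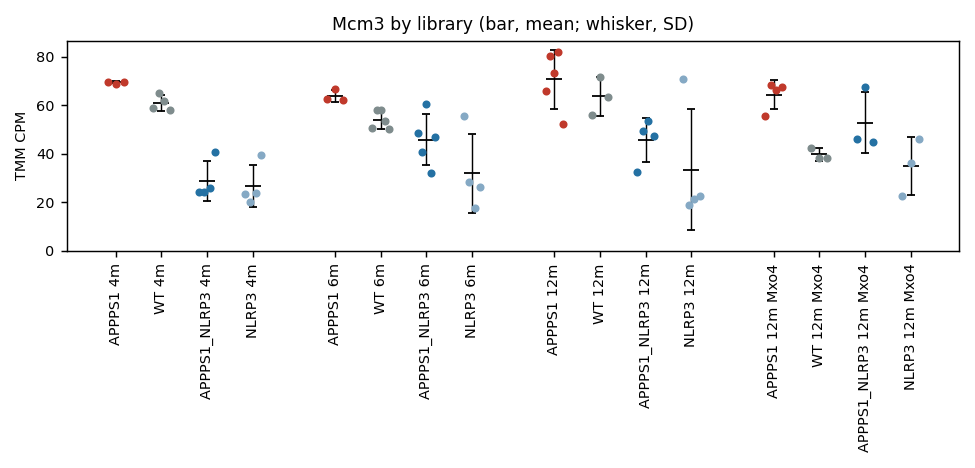
TMM CPM of Mcm3 (y axis, from 0) in each library (points), with the mean and SD of the 16 groups (x axis). At 4 months the libraries without Nlrp3 lie between 19.9 and 40.9, below the 58.1 to 69.8 of those with it, and NLRP3_12m spans 18.9 to 70.7.

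Finally, Mxo4 libraries were set against untagged 12-month libraries of the same genotype. Sex was not balanced in these pairs. APPPS1_12m held 5 female libraries and WT_12m 3, while APPPS1_12m_Mxo4 held 1 female and 3 male and WT_12m_Mxo4 2 female and 1 male. NLRP3_12m and APPPS1_NLRP3_12m held 4 male libraries each. NLRP3_12m_Mxo4 held 1 female and 2 male, and APPPS1_NLRP3_12m_Mxo4 2 female and 1 male. Stmn1, a microtubule-destabilising protein, was lower in NLRP3_12m_Mxo4, with 19.6, 18.7 and 29.3 CPM in NLRP3_12m_Mxo4 libraries, against 37.6, 97.3, 69.3 and 46.2 CPM in NLRP3_12m libraries, a pair that did not overlap, at -1.41 ± 0.27 (adjusted p = 0.00235) where 4.56% of all genes were lower. The 10 neuron markers summed to 155.4, 475.7, 1201 and 461.4 CPM in those NLRP3_12m libraries. In the NLRP3_12m_Mxo4 libraries they summed to 18.98, 25.94 and 39.12 CPM. The part of neurons in this difference was not tested. Cdkn2c was lower in APPPS1_12m_Mxo4, with 2.93, 5.16, 5.92 and 5.67 CPM in APPPS1_12m_Mxo4 libraries, against 8.62, 6.42, 6.83, 9.55 and 10.2 CPM in APPPS1_12m libraries, also apart, at -0.74 ± 0.22 (adjusted p = 0.0344) where 3.68% were lower. That call was lost without any of 5 libraries, and with a term for sex 0 members were called in that comparison. Without replicate 56 no member was called there and Cdkn2c was at -0.53 ± 0.23 (adjusted p = 0.192). WT called 0 members (3 at an unadjusted p under 0.05, 0 by DESeq2) and APPPS1_NLRP3 0 (4, and 2 by DESeq2), against 0.166% and 0.916% of all genes called and 10.3% and 13.3% at the unadjusted threshold. The G2 and mitosis medians were 0.07 in WT, 0.10 in NLRP3, -0.28 in APPPS1 (-0.16 without replicate 56) and -0.05 in APPPS1_NLRP3.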

How the data were processed

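The deposited table holds counts of reads per gene for CD11b+ brain cells, not normalized. Per the labels' protocols, 10 ng of RNA was amplified with SMART-Seq v4 and sequenced on a HiSeq 2500. Per the submitters' processing notes, Trimmomatic, TopHat and HTSeq were used with build mm10; versions and strand use are not given in the sources used here. Gene symbols and positions come from GENCODE vM21 (GRCm38). The 46 genes and all lists were chosen with earlier results of these data known.

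All 62 libraries and 19865 genes (edgeR's filterByExpr, minimum count 10, minimum total 15) were fitted together with edgeR 4.0.16 in R 4.3.3 (limma 3.58.1), by the quasi-likelihood F test with TMM factors, 1 coefficient for each group and a term for the title's second number (2 values, meaning not stated). Adjusted p is Benjamini-Hochberg over all genes, and called means under 0.05. Log2 differences are given ± SE. DESeq2 1.42.0 was an alternative, as were other scalings, filters and terms and leaving out each library. On simulated counts, 61 of 100 genes changed by 1 and 89 of 100 changed by 2 on the log2 scale were called for APPPS1_6m minus WT_6m. For APPPS1_12m minus WT_12m they were 58 and 92, and each simulation had 3 false calls. The changed genes were drawn from all genes averaging over 1 CPM, so these shares need not hold for the 46 members. Values per library are given for Mki67, Top2a, Cdk1, Mcm5, Ccnd1 and Cdkn1a, and per role for 4 more members with the smallest adjusted p in the 8 transgene comparisons. In other comparisons every called member is named, or the 3 with the smallest adjusted p where more than 5 are called, and of each further list up to 4 genes, with Csf1, Csf1r and Il34. Sex was read from Xist and Y-linked genes.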

Additional observations from a re-analysis of the deposited data

Results flagged for a closer look

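Single libraries stood apart from the rest of their group in 18 of 240 groups of 4 or 5 values tested (Dixon's gap test at 95%), where chance gives about 1 in 20 groups. APPPS1_12m replicate 38 was high for Mki67 (24.4 CPM, next 12.4 CPM), for Ccnd2 (9.35 CPM, next 5.77 CPM) and for the summed G2 and mitosis genes (346 CPM, next 231 CPM), and it also held the most monocyte and neutrophil RNA; the part of those cells was not tested. APPPS1_12m replicate 41 was high for Cdk4 (216 CPM, next 148 CPM) and Ccne1 (2.82 CPM, next 1.59 CPM), and it had the lowest depth of its group.

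The library labelled APPPS1_12m_Mxo4 replicate 56 was low for Birc5 (1.39 CPM, next 4.95 CPM) and Mcm3 (55.4 CPM, next 66.1 CPM), and replicate 57 of that group was high for Pcna (115 CPM, next 100.1 CPM). Mcm3 also had a high library in APPPS1_NLRP3_4m (replicate 14, 40.9 CPM, next 25.7 CPM) and in NLRP3_12m (replicate 42, 70.7 CPM, next 22.6 CPM). Cdk1 was low in NLRP3_4m replicate 10 (3.93 CPM, next 6.08 CPM) and high in APPPS1_NLRP3_6m replicate 25 (23.5 CPM, next 14.2 CPM). Top2a was high in APPPS1_NLRP3_12m replicate 44 (33.9 CPM, next 24.4 CPM), and Mcm5 was high in NLRP3_12m replicate 45 (18.9 CPM, next 13.3 CPM), a shallow library. Cdkn2c was high in WT_4m replicate 1 (4.22 CPM, next 2.71 CPM) and in NLRP3_6m replicate 33 (5.07 CPM, next 3.57 CPM). In APPPS1_NLRP3_6m, Mcm2 was low in replicate 28 (14.5 CPM, next 18.3 CPM) and the summed G2 and mitosis genes were low in replicate 31 (211 CPM, next 253 CPM).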

How the results depend on the processing

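No paired analysis was possible because the last title number, read as the replicate number, is used for 1 library only; the first and second title numbers recur across groups, their meaning is not stated, and both were fitted as terms. Counts below are members called. With the first title number as a term, the counts were 0 for APPPS1_6m and 13 for APPPS1_12m, each minus WT, 2 for APPPS1_12m_Mxo4 minus WT_12m_Mxo4, 3 for APPPS1_NLRP3_6m minus APPPS1_NLRP3_4m, 1 for APPPS1_NLRP3_12m minus APPPS1_12m, and 0 for APPPS1_NLRP3_4m minus APPPS1_4m, NLRP3_4m minus WT_4m and APPPS1_12m_Mxo4 minus APPPS1_12m. Within second title number 1 and 2 (chosen after seeing the data, with fewer libraries), the counts were 0 and 2 for APPPS1_6m, 6 and 15 for APPPS1_12m and 11 and 0 for APPPS1_12m_Mxo4, each minus WT. They were 7 and 3 for APPPS1_NLRP3_6m and 11 and 1 for APPPS1_NLRP3_12m, each minus NLRP3, 0 and 4 for APPPS1_NLRP3_12m minus APPPS1_12m, 1 and 1 for APPPS1_NLRP3_6m minus APPPS1_NLRP3_4m, and 0 and 11 for APPPS1_12m_Mxo4 minus APPPS1_12m. Both were 0 for the 4-month Nlrp3 comparisons and for NLRP3_12m_Mxo4 minus NLRP3_12m. Number 1 alone gave 0 for APPPS1_12m minus APPPS1_6m and 1 for NLRP3_12m minus WT_12m. Number 2 alone gave 10 for APPPS1_NLRP3_12m_Mxo4 minus APPPS1_12m_Mxo4, and 1 each for APPPS1_NLRP3_6m minus APPPS1_6m, APPPS1_NLRP3_12m_Mxo4 minus APPPS1_NLRP3_12m, the averaged 4-month difference and the double differences at 6 months and in the Mxo4 set. There Cdk1 in APPPS1_12m_Mxo4, whose only such library is replicate 56, turned to -0.13.

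With no filter on low counts the 4-month Nlrp3 comparisons and APPPS1_12m_Mxo4 minus APPPS1_12m gave 0 and APPPS1_NLRP3_12m minus APPPS1_12m gave 1. With no term for the second title number that last comparison and NLRP3_12m minus WT_12m gave 1 each. With sex as a term there were 0 for APPPS1_NLRP3_12m minus APPPS1_12m and for APPPS1_12m_Mxo4 minus APPPS1_12m, 4 for APPPS1_NLRP3_6m minus APPPS1_NLRP3_4m and 1 for the averaged difference at 6 minus 4 months. DESeq2 gave 1 for NLRP3_12m minus WT_12m, NLRP3_12m minus NLRP3_4m and APPPS1_6m minus APPPS1_4m, 3 for APPPS1_12m_Mxo4 and 2 for APPPS1_NLRP3_12m_Mxo4, each minus its untagged group. Without libraries under 2000000 counts NLRP3_12m_Mxo4 minus NLRP3_12m gave 2. The cause of these changes was not tested.

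Leaving out 1 library at a time gave 4 to 11, 15 to 25 and 1 to 19 for APPPS1_6m, APPPS1_12m and APPPS1_12m_Mxo4 minus WT, and 11 to 27, 16 to 24 and 3 to 13 for APPPS1_NLRP3_6m, APPPS1_NLRP3_12m and APPPS1_NLRP3_12m_Mxo4 minus NLRP3. It gave 0 to 1 for both 4-month Nlrp3 comparisons, NLRP3 minus WT at 6 and 12 months, NLRP3_12m minus NLRP3_4m, the 6-month double difference and the averaged difference at 6 minus 4 months. It gave 0 to 5 for APPPS1_NLRP3_12m minus APPPS1_12m, 2 to 4 for APPPS1_12m minus APPPS1_6m, 3 to 8 for APPPS1_NLRP3_6m minus APPPS1_NLRP3_4m, 1 to 2 for NLRP3_12m_Mxo4 and 0 to 7 for APPPS1_12m_Mxo4 minus untagged. Levels on the plain library total differed from TMM levels by more than 1 SD in 8 of 48 role sums. Depth limits the scarce mitotic genes in NLRP3_12m replicate 45.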
